A study of Mus musculus with 10 samples.

Results

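The IGHV14 family (also called SM7) is a small group of immunoglobulin heavy chain V genes, and its use was described here in peritoneal cavity B-1a cells. Its members are IGHV14-1, IGHV14-2, IGHV14-3 and IGHV14-4. A clonotype was taken as a member when exactly 1 of these 4 genes was listed as its V gene, which held for 1719 of 195529 *Igh* clonotypes. All 4 *Igh* libraries came from B-1a cells sorted from the peritoneal cavity of C57BL/6 mice aged 6 to 8 weeks, 2 from wild-type (WT) mice and 2 from *Igll1* knockout (Igll1-/-) mice. The rearranged *Igh* loci were amplified from genomic DNA with V primers in framework region 3 and with JH primers, and products of 120 to 280 bp were kept. The comparison asks whether heavy chain gene use differs when B-1a cells form without a pre-BCR. A clonotype is a rearrangement with its V, D and J genes and its CDR3 amino acid sequence, and its reads are the number of sequences assigned to it. The labels do not say whether a library came from 1 mouse or from a pool, so p-values from tests over libraries measure only the spread between these libraries.

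Each B cell makes its heavy chain by joining a V gene to a D and a J gene, and the junction encodes CDR3, the part of the antibody that varies most. In conventional B-cell development the new heavy chain is first paired with the surrogate light chain, of which the *Igll1* product λ5 is a component, to form the pre-BCR. B-1a cells are largely of fetal origin, persist by self-renewal and secrete natural IgM, and part of their repertoire binds phosphatidylcholine. In the RefSeq annotation of GRCm38.p6, which serves here only for the order of the genes on chromosome 12, IGHV14-1 lies closest to the J genes of the 4 and IGHV14-4 farthest. IGHV14-2 and IGHV14-3 lie on either side of *Ighv11-2*, which encodes a phosphatidylcholine-binding heavy chain, and IGHV14-1 lies between *Ighv7-2* and *Ighv4-1*.

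The CDR3 sequences of the largest clonotypes show what these rearrangements encode. They are given as amino acids from the deposited tables, for each gene in the libraries where its largest clonotype held more than 1 read.
In WT replicate 1, IGHV14-3: ANWDY
In WT replicate 2, IGHV14-3: ARDYDYDYAMDY
In WT replicate 2, IGHV14-3: ASNY
In Igll1-/- replicate 1, IGHV14-3: GGVTTSYWYFDV
In Igll1-/- replicate 2, IGHV14-3: AITTVVAY
In WT replicate 1, IGHV14-2: ARLGLCPFDY
In WT replicate 1, IGHV14-2: ATAY
In WT replicate 1, IGHV14-2: TTFAY
In WT replicate 2, IGHV14-2: TTAQATWFAY
In Igll1-/- replicate 1, IGHV14-2: ARLVDY
In Igll1-/- replicate 2, IGHV14-2: TTTVAY
In WT replicate 1, IGHV14-4: TNWDVYFDY
Where several lines name the same gene and library, the clonotypes held equal reads. TTFAY was listed as unproductive and the others as productive. The endings FDY, FAY, YAMDY and YWYFDV are those that the J genes encode, and what precedes them comes from the end of V, the D gene and the junction.

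The libraries held between 32386 and 58205 clonotypes from 180593 to 285517 reads, and 68.0% to 73.4% of their clonotypes had a single read. No molecular barcode marked the original molecule, so the number of cells and the number of PCR copies cannot be told apart in the reads, and all intervals below cover counting error only. The smallest share that 3 clonotypes could show was between 0.00515% and 0.00926% of a library. Of 2 V genes known from B-1a cells, IGHV12-3 made up 4.32% to 5.09% of the clonotypes. IGHV11-2 made up 2.99% and 4.79% in the WT libraries and 0.821% and 0.960% in the Igll1-/- libraries. Since all *Igh* libraries came from B-1a cells, these shares have no other cell type beside them and cannot test the B-1a label. Both replicates of a genotype differed from each other by more than sampling noise over V genes (chi-square 3463 for WT with 100 degrees of freedom, and 3431 for Igll1-/- with 95).

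IGHV14-3 made up most of the family, with 1553 of the 1719 clonotypes (90.3%). It held 467 clonotypes in WT replicate 1 and 229 in WT replicate 2, against 266 in Igll1-/- replicate 1 and 591 in Igll1-/- replicate 2. These were 0.847% (95% Wilson interval 0.774 to 0.927), 0.460% (0.404 to 0.523), 0.821% (0.729 to 0.926) and 1.02% (0.937 to 1.10) of the clonotypes. WT replicate 2 was the low library, and WT replicate 1 stood above Igll1-/- replicate 1, so the genotypes overlapped. By reads, IGHV14-3 took 0.457% and 0.222% of the WT libraries and 0.503% and 0.807% of the Igll1-/- libraries. Here both Igll1-/- libraries lay above both WT libraries. How many V genes had this order by reads was not counted, and by clonotypes 16 of 91 (17.6%) had it.

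IGHV14-2 was the second gene of the family, with 141 clonotypes. It held 28 and 17 clonotypes in the WT libraries and 32 and 64 in the Igll1-/- libraries. Its percentages were 0.0508% and 0.0341% in WT and 0.0988% and 0.110% in Igll1-/- B-1a cells, so the genotypes did not overlap. The same order, both Igll1-/- libraries above both WT libraries, was found for 16 of the 91 V genes tested (17.6%).

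IGHV14-1 and IGHV14-4 were seldom listed alone. IGHV14-1 held 4, 0, 1 and 4 clonotypes, in the order WT replicates 1 and 2 and then Igll1-/- replicates 1 and 2, each resting on 1 read. IGHV14-4 held 14 clonotypes with 83 reads in WT replicate 1, none in WT replicate 2, and 1 clonotype of 1 read in each Igll1-/- library. A count of 0 in WT replicate 2 still allows a share of up to 0.00602%, taken as 3 clonotypes of that library, while the 14 IGHV14-4 clonotypes of WT replicate 1 were 0.0254% of theirs. Neither gene had enough clonotypes to enter the test below.

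Listing of several family members was more frequent than listing of 1. Another 2153 clonotypes were listed with 2 IGHV14 genes, of which 1397 named IGHV14-2 or IGHV14-3, 563 named IGHV14-1 or IGHV14-4, 165 named IGHV14-1 or IGHV14-2 and 28 named IGHV14-1 or IGHV14-3. With these, 3872 clonotypes had no V gene outside the family. The share of them that named exactly 1 gene was 55.6% and 32.8% in the WT libraries and 47.8% and 42.0% in the Igll1-/- libraries. The WT replicates lay at either end of the range. WT replicate 2, low in IGHV14-3 alone, held 323 clonotypes naming IGHV14-2 or IGHV14-3, against 296 in WT replicate 1. Over all *Igh* clonotypes, several V genes were listed for 14.3% and 21.25% in the WT libraries and for 19.9% and 19.5% in the Igll1-/- libraries. The clonotypes with only IGHV14 genes listed made up 1.67% (1.57 to 1.79) and 1.5% (1.40 to 1.61) of the WT libraries and 1.94% (1.80 to 2.09) and 2.70% (2.57 to 2.84) of the Igll1-/- libraries. On this wider count both Igll1-/- libraries exceeded both WT libraries, and the family ranked 8, 8, 7 and 6 among 13 V gene families.

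**Figure D1:**
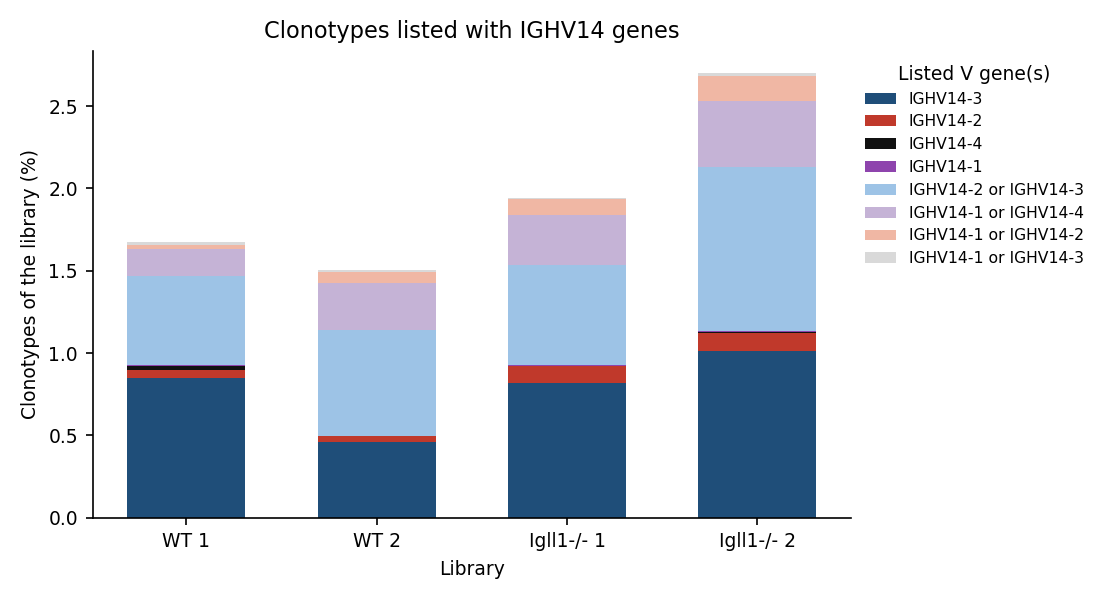
Stacked bars show the percent of the clonotypes of each library (vertical axis) that were listed with IGHV14 genes, for the 2 WT and 2 Igll1-/- libraries. Dark segments are clonotypes with exactly 1 gene listed and pale segments those listed with 2 of the genes; the full bars reach 1.67%, 1.5%, 1.94% and 2.70%, and IGHV14-3 and the listing of IGHV14-2 or IGHV14-3 form most of each bar.

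Most clonotypes of IGHV14-1 and IGHV14-2 had a counterpart among the ambiguous listings. Of the 141 IGHV14-2 clonotypes, 133 (94.3%) had a CDR3 and J gene that also occurred in the same library in a clonotype listed with several IGHV14 genes, and 129 of them had fewer reads than that listing. For example, TTTVAY held 19 reads under IGHV14-2 and 325 reads under IGHV14-2 or IGHV14-3 in Igll1-/- replicate 2, and TTAQATWFAY held 9 and 199 reads in WT replicate 2. The same was true of 8 of the 9 IGHV14-1 clonotypes. The single IGHV14-1 clonotype of Igll1-/- replicate 1, with the CDR3 TTPPFDYGSRWFAY, held 1 read, while this CDR3 was the largest under IGHV14-1 or IGHV14-4 in that library with 106 reads. IGHV14-3 differed from them, with 304 of 1553 clonotypes (19.6%) in such a position, between 5.35% in WT replicate 1 and 35.5% in Igll1-/- replicate 2. The 16 IGHV14-4 clonotypes had none. Among clonotypes with 1 V gene outside the family, 9.91% had such a counterpart.

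The allele listing separated the genes in the same way. All 1553 IGHV14-3 clonotypes had alleles of IGHV14-3 alone, and 1552 of them named allele 01. Of the IGHV14-2 clonotypes, 100 had alleles of several genes and 41 had alleles of IGHV14-2 alone, which were 15, 4, 8 and 14 in the order WT replicates 1 and 2 and Igll1-/- replicates 1 and 2. For other V genes 98.0% of the clonotypes with 1 gene listed had alleles of 1 gene. In identity to the germline V gene, 76.6% of the IGHV14-3 clonotypes stood at 99.02% and 1.22% at 100%. Other V genes had 40.2% to 46.8% of the clonotypes of a library at 100%, but 18 of the 54 V genes with at least 500 clonotypes had less than 10% there. The 14 IGHV14-4 clonotypes of WT replicate 1 had a median identity of 90.2%, against a median of 99.02% for IGHV14-3 and for other V genes in that library. They were thus distant matches to the gene listed. The cause of these differences in identity was not tested.

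No V gene passed the test for a difference between the genotypes. The test was edgeR's quasi-likelihood test on clonotype counts with Benjamini-Hochberg adjustment over the 91 V genes that had at least 10 clonotypes in at least 2 libraries. At an adjusted p under 0.05 it called 0 genes, or 0% of those tested, while 8 genes had an unadjusted p under 0.05. DESeq2 called 1 gene, which was not of this family. The log2 fold change of IGHV14-2 was 1.29 (Igll1-/- over WT, standard error 0.51), with an unadjusted edgeR p of 0.0550 and an adjusted p of 0.412. For IGHV14-3 it was 0.49, with a standard error of 0.45 and an edgeR adjusted p of 0.752. Both values were above 0 in every fit that left out 1 library, at 1.04 to 1.61 for IGHV14-2 and 0.12 to 0.998 for IGHV14-3, and neither gene passed in any of them. The IGHV14-3 value was 0.12 without WT replicate 2 and was 0.998 without WT replicate 1. With only the clonotypes whose alleles belong to 1 gene, the value of IGHV14-2 was 0.45, with a standard error of 0.74 and an edgeR adjusted p of 0.832.

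**Figure D2:**
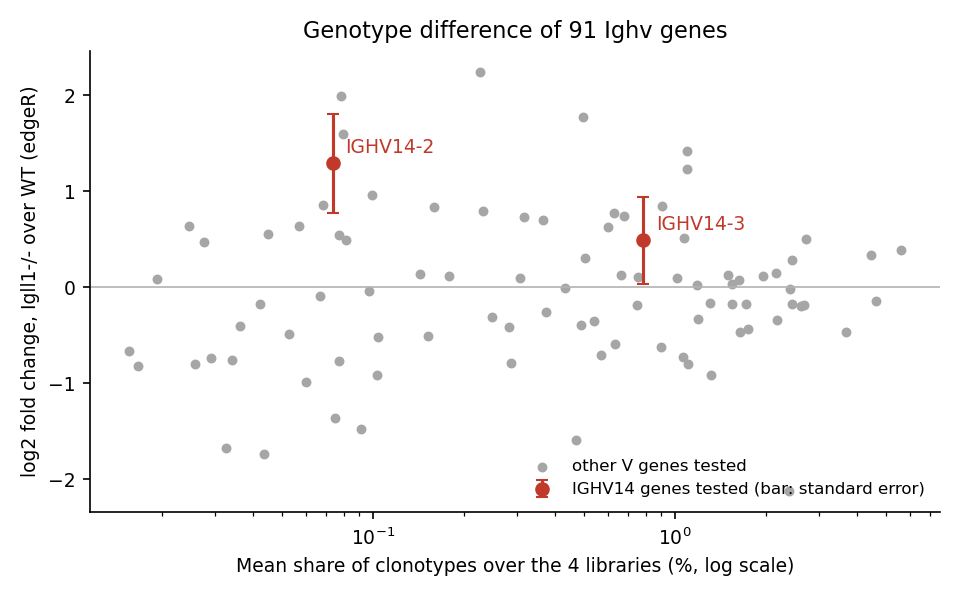
Each point is 1 of the 91 Ighv genes tested, with its mean share of clonotypes over the 4 libraries on a log axis and its edgeR log2 fold change of Igll1-/- over WT. IGHV14-2 at 1.29 and IGHV14-3 at 0.49 are drawn with their standard errors and lie within the range of the other V genes.

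The family as a whole was tested with all clonotypes whose listed genes belong to 1 V gene family, a fit that was added after the listings had been seen. The IGHV14 family had a log2 fold change of 0.55 (standard error 0.23), and its edgeR adjusted p was 0.259 over 13 families. No family was called by edgeR (0%) and 4 were by DESeq2, not this one, and both Igll1-/- libraries lay above both WT libraries in 5 of the 13 families (38.5%). For the clonotypes with exactly 1 member listed, the shares were 0.931% and 0.494% in WT and 0.926% and 1.13% in Igll1-/- B-1a cells. The mean was 0.712% ± 0.309 (SD, n = 2) for WT and 1.03% ± 0.147 (SD, n = 2) for Igll1-/- libraries. The difference was 0.318 percentage points (exact permutation test, two-sided, p = 0.667), and the genotypes overlapped, with WT replicate 1 above Igll1-/- replicate 1. With 2 libraries against 2 this test cannot give a p below 0.33.

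Neighbouring genes and related families were set beside the members. The 19 tested genes of the families interspersed in the middle of the locus had a median log2 fold change of 0.03, with 11 above 0 and none called. This list and the next include IGHV14-2 and IGHV14-3 themselves, both above 0. The 58 tested genes of IGHV1, IGHV9 and IGHV14 had a median of -0.17, with 21 above 0 and none called, and over all 91 genes the median was -0.03 with 43 above 0. IGHV11-2, which lies between IGHV14-2 and IGHV14-3, had 2.99% and 4.79% of the WT clonotypes and 0.821% and 0.960% of the Igll1-/- clonotypes. As listed, these adjacent genes had shares of opposite order between the genotypes, IGHV14-2 higher and IGHV11-2 lower in both Igll1-/- libraries. For IGHV14-2 this order rested on listings of which 100 of 141 had alleles of several genes. With alleles of IGHV14-2 alone its log2 fold change was 0.45 (standard error 0.74). The genotypes overlapped for IGHV14-3, on the other side of IGHV11-2.

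The V genes whose shares followed those of the family most closely over the 4 libraries were IGHV5-17, IGHV8-7 and IGHV1-15. Likeness was measured as the distance between log2 shares centred on their mean over the libraries, and these genes had distances of 0.29, 0.40 and 0.41 against a median of 1.19 over 85 genes. IGHV5-17 made up 5.82% and 3.88% of the WT clonotypes and 5.73% and 7.03% of the Igll1-/- clonotypes. The WT replicate 2 library was the lowest for all of these genes, as it was for the clonotypes with exactly 1 member listed. The genes were chosen for this likeness, so the shared low library is not a separate result.

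Single libraries were then compared by Fisher's exact test on clonotypes, which is a statement about 2 libraries and leaves out the spread between mice. In this test 44.4% of the V genes were called between the libraries of replicate number 1 and 44.1% between those of replicate number 2. Between replicates of a genotype 45.2% were called in WT and 41.7% in Igll1-/- B-1a cells, so replicates of a genotype gave about as many calls as the genotypes did. With clonotypes of at least 10 reads this no longer held, since 21.2% and 22.8% were called in the pairs of genotypes against 10.3% between the WT and 8.89% between the Igll1-/- replicates. IGHV14-3 was level in the first pair (log2 ratio -0.04, Fisher's exact test, adjusted p = 0.845) and higher in Igll1-/- in the second (1.14, Fisher's exact test, adjusted p = 1.03e-25). It also differed between the WT replicates (-0.88, Fisher's exact test, adjusted p = 5.87e-14), and the Igll1-/- replicates were told apart by a log2 ratio of 0.31 (adjusted p of 0.0104, same exact test). As listed, IGHV14-2 was higher in the Igll1-/- library of both pairs. The log2 ratios were 0.96 and 1.69 (Fisher's exact test, adjusted p = 0.0279 and 1.16e-05). Replicates of a genotype were not told apart in IGHV14-2 by this test (adjusted p = 0.370 in WT and 0.843 in Igll1-/-). Of the 141 IGHV14-2 clonotypes, 100 had alleles of several genes. Those with alleles of IGHV14-2 alone were 15 of 55129 in WT against 8 of 32386 in Igll1-/- in the first pair. In the second pair they were 4 of 49809 against 14 of 58205. These smaller counts were not tested within pairs. With at least 10 reads IGHV14-2 had 0 clonotypes in WT against 3 in Igll1-/- in the second pair (Fisher's exact test, adjusted p = 0.550). In the first pair its largest clonotypes held only 2 reads in WT and 4 in Igll1-/-. IGHV14-4 was lower in the Igll1-/- library of the first pair (-3.04, Fisher's exact test, adjusted p = 0.0350), where it had 1 clonotype against 14. The WT replicates differed in it as well, with 14 clonotypes against 0 (Fisher's exact test, adjusted p = 0.000454).

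Most family clonotypes were productive, meaning in frame and without a stop codon. The productive share was 94.9% and 93.9% in the WT libraries and 97.7% and 96.5% in the Igll1-/- libraries. For other V genes it was 92.1%, 92.7%, 93.4% and 93.5% in the same order. The family lay above the other V genes in 4 of 4 libraries, by 2.83 percentage points on average (SD 1.22), with an exact sign-flip permutation p of 0.12, the smallest that 4 libraries allow. Between the genotypes the family differed by 2.67 percentage points, with both Igll1-/- libraries above both WT libraries (exact permutation test, p = 0.33, the smallest possible). The productive share of other V genes had the same order, so this order was not particular to the family. With at least 2 or 10 reads the genotypes overlapped in the family's productive share (differences of 2.09 and 4.17 percentage points). With at least 10 reads the family lay above other V genes in 3 of 4 libraries. By reads it lay above them by only 0.094 percentage points in WT replicate 2. IGHV14-2 had a productive share of 78.6% over its 28 clonotypes in WT replicate 1, below the 95.7% of IGHV14-3, and of 98.4% to 100% in the other libraries, where it lay above the 93.4% to 97.4% of IGHV14-3.

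In each library the CDR3 of productive family clonotypes was shorter on average than that of other V genes. Its mean length was 10.2 and 10.1 amino acids in the WT libraries and 9.90 and 9.49 in the Igll1-/- libraries. Other V genes had 10.9, 10.6, 10.6 and 10.4 amino acids in the same order. The family was shorter in 4 of 4 libraries, by 0.702 amino acids on average (SD 0.161, exact sign-flip permutation test, p = 0.12, the smallest possible). With clonotypes of at least 2 reads the mean difference, family minus other V genes, was -0.351 amino acids (SD 0.573, exact permutation test, p = 0.375), with WT replicate 2 above 0 at 0.330, and with every IGHV14 listing it was -1.29 amino acids. The family means of the genotypes were 10.1 ± 0.0411 (SD, n = 2) for WT and 9.69 ± 0.288 (SD, n = 2) for Igll1-/-, an exact permutation p of 0.33. Other V genes were also shorter in both Igll1-/- libraries, with 10.58 and 10.40 amino acids against 10.86 and 10.63 in WT. The family means of the genotypes overlapped by reads (Igll1-/- minus WT, -0.342 amino acids), with at least 2 reads (-0.842) and with at least 10 (-0.063). Short CDR3s of up to 8 amino acids formed 27.1% and 29.4% of the family in WT and 30.0% and 40.3% in Igll1-/- libraries, against 20.3% to 27.2% for other V genes. CDR3s of 14 or more amino acids formed 7.51% to 11.3% of the family and 12.3% to 15.2% of the others.

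**Figure D3:**
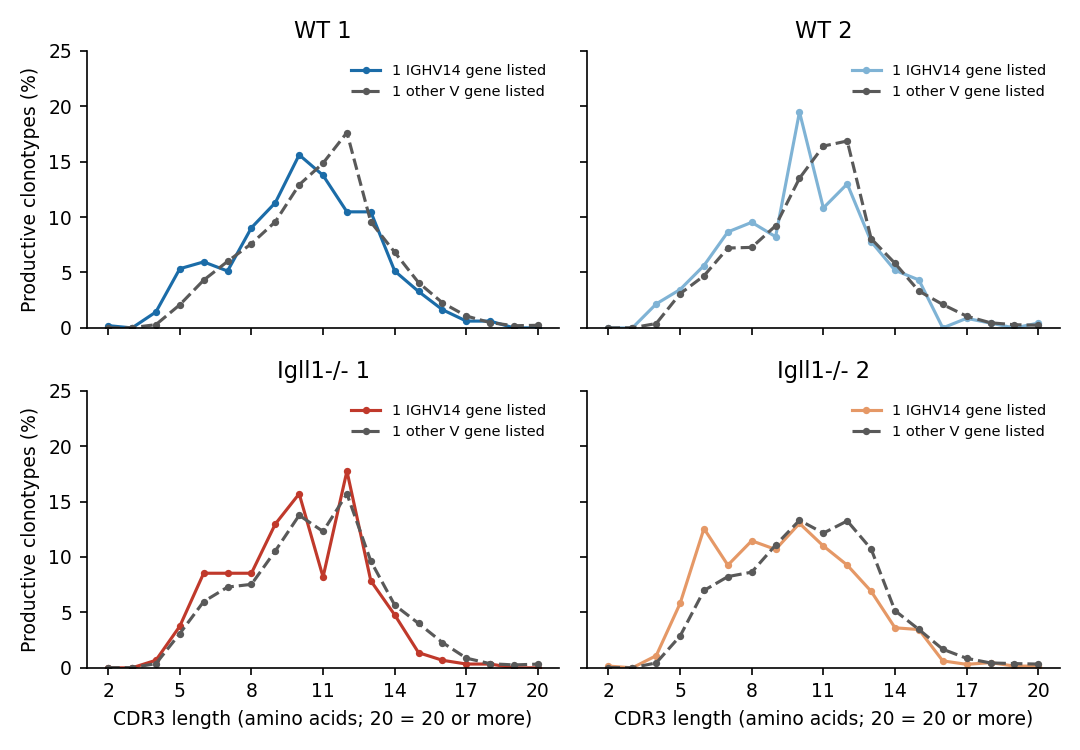
Panels show, for each library, the percent of productive clonotypes (vertical axis) at each CDR3 length in amino acids (horizontal axis, 20 standing for 20 or more), for clonotypes with 1 IGHV14 gene listed (solid) and with 1 other V gene listed (dashed). The family peaks at 10 amino acids in WT replicate 1, WT replicate 2 and Igll1-/- replicate 2, and at 12 in Igll1-/- replicate 1; at 6 amino acids Igll1-/- replicate 2 has 12.6% of its family clonotypes.

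Members differed in CDR3 length among themselves. IGHV14-3 had means of 10.3, 10.3, 10.1 and 9.57 amino acids in the order WT replicates 1 and 2 and Igll1-/- replicates 1 and 2. IGHV14-2 had means of 7.27, 8.18, 8.25 and 8.68 amino acids, shorter than IGHV14-3 in 4 of 4 libraries. Clonotypes listed with several IGHV14 genes were also short, with means of 8.62 to 9.17 amino acids, all below the 9.49 to 10.2 of clonotypes with exactly 1 member listed. The first residue of CDR3, which the end of the V gene helps to encode, differed too. As listed, alanine stood first in 89.1% of the productive IGHV14-3 clonotypes and in 63.4% of those of IGHV14-2, and threonine in 4.63% and 29.9%. Of the 141 IGHV14-2 clonotypes, however, 100 had alleles of several genes. Clonotypes listed as IGHV14-2 or IGHV14-3 began with alanine in 77.3% and with threonine in 18.8%. In clonotypes listed as IGHV14-1 or IGHV14-4 threonine stood first in 35.5%, and in other V genes in 9.79%.

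J gene choice was led by IGHJ2, in 46.2% and 41.1% of the productive family clonotypes in WT and in 42.0% and 45.5% in Igll1-/- libraries. IGHJ3 followed with 26.9% and 24.2% in WT and 31.1% and 29.4% in Igll1-/- libraries, against 24.1%, 18.4%, 25.5% and 26.3% for other V genes. The IGHJ3 share of the family was higher in 4 of 4 libraries, by 4.31 percentage points on average (SD 1.60, exact sign-flip permutation p = 0.12, adjusted p = 0.5 over the 4 J genes). It was 8.39 percentage points by reads and, with at least 10 reads, 7.49 with 3 of 4 libraries above 0. IGHJ1 was lower than in other V genes in 3 libraries and higher in Igll1-/- replicate 1, where it reached 15.02%. Between the genotypes IGHJ3 was 4.64 percentage points higher in Igll1-/- libraries without overlap, but no J gene passed the exact permutation test (adjusted p = 1 for each). For other V genes the IGHJ3 share was likewise higher in both Igll1-/- libraries than in both WT libraries, so this order was not particular to the family.

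D gene choice was led by the IGHD2 and IGHD1 families. Shares of D families are given over the productive clonotypes whose listed D genes all belong to 1 D family. IGHD2 was listed in 38.98% and 40.9% of these family clonotypes in WT and in 46.5% and 40.2% in Igll1-/- libraries, and was the more frequent in 3 of the 4 libraries. The IGHD1 family was listed in 38.3% and 35.3% of them in WT and in 36.9% and 43.7% in Igll1-/- libraries. This was above other V genes in 4 of 4 libraries by 3.72 percentage points on average (SD 2.42, exact sign-flip permutation p = 0.12, adjusted p = 0.5 over the D families). With every IGHV14 listing this difference was 1.01 percentage points, above 0 in 2 of 4 libraries, and by reads or with at least 2 reads it was above 0 in 3 of 4. No D gene was listed for 7.80% and 6.93% of the productive family clonotypes in WT and for 7.51% and 9.89% in Igll1-/- libraries, above the 5.18% to 6.41% of other V genes in each library, by 2.18 percentage points on average (exact sign-flip permutation test, p = 0.12). Igll1-/- replicate 1 lay below other V genes by reads (-1.86) and with at least 2 reads (-1.93), and WT replicate 1 did so with at least 10 reads (-0.690), while with every IGHV14 listing the mean difference was 5.70 and with at least 10 reads it was 6.78. Among productive family clonotypes with 1 D gene listed, IGHD2-2 was high in 1 library, at 14.4% in Igll1-/- replicate 1 against 2.79% to 4.23% in the other libraries. The largest clonotype of that library, GGVTTSYWYFDV, was listed with IGHD2-2 and IGHJ1, and 17 family clonotypes of the library (5.67%) differed from its CDR3 by 1 residue, 12 of them with 1 read.

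**Figure D4:**
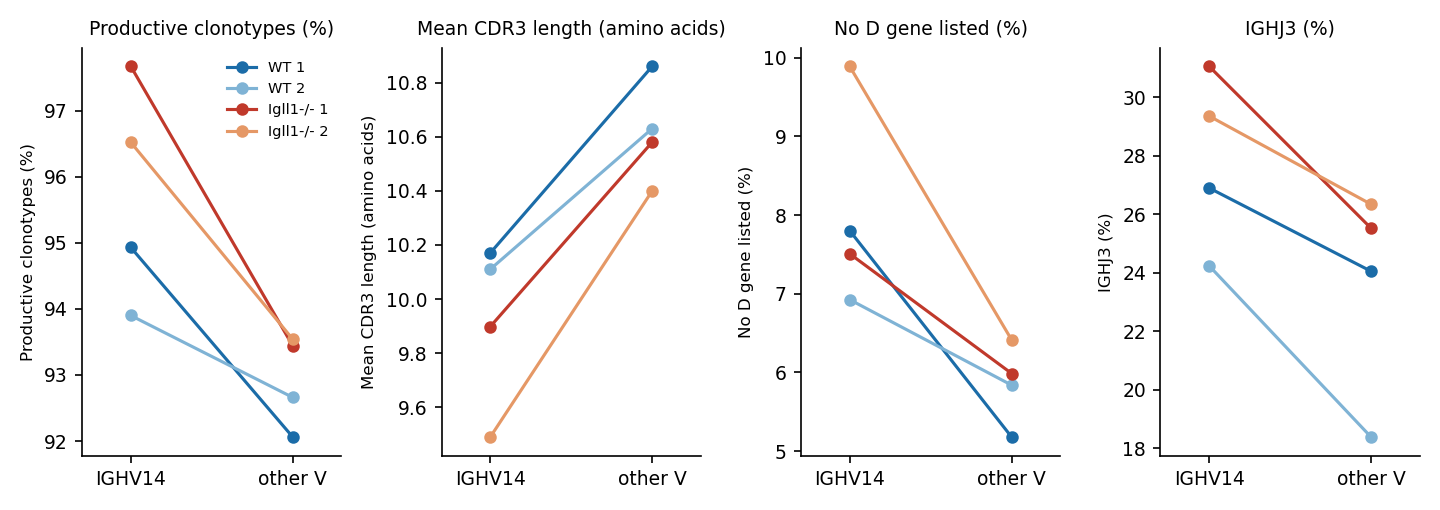
Lines join the value of the IGHV14 clonotypes and of the clonotypes with another single V gene in the same library, for the productive share (%), the mean CDR3 length (amino acids), the share with no D gene listed (%) and the share of IGHJ3 (%); the vertical axes do not start at 0. All 4 lines run in the same direction in each panel, the family being higher in productive share, clonotypes without a D gene and IGHJ3, and lower in CDR3 length.

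Reads were spread unevenly over the clonotypes. The largest IGHV14-3 clonotype held 129 reads in WT replicate 1 (ANWDY, 13.1% of the reads of the gene), 24 reads in WT replicate 2 (ARDYDYDYAMDY and ASNY alike, 5.08% each), 165 reads in Igll1-/- replicate 1 (GGVTTSYWYFDV, 18.2%) and 637 reads in Igll1-/- replicate 2 (AITTVVAY, 27.6%). AITTVVAY was the clonotype of rank 37 in its library, with 0.223% of all reads, while the others ranked 102, 1203 and 103. Clonotypes of 1 read made up 78.6% and 81.7% of the family in WT and 78.0% and 63.5% in Igll1-/- libraries. At least 10 reads were reached by 15, 12, 17 and 35 family clonotypes in the same order, or 2.92% to 5.67%, against 4.15% to 5.12% for other V genes. Without the reads of the largest CDR3 of each library, the family took 0.452% and 0.225% of the reads in WT and 0.435% and 0.634% in Igll1-/- libraries, against 0.512%, 0.236%, 0.526% and 0.863% with them. The order by reads therefore rested in part on these CDR3s, since WT replicate 1 then lay above Igll1-/- replicate 1.

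**Figure D5:**
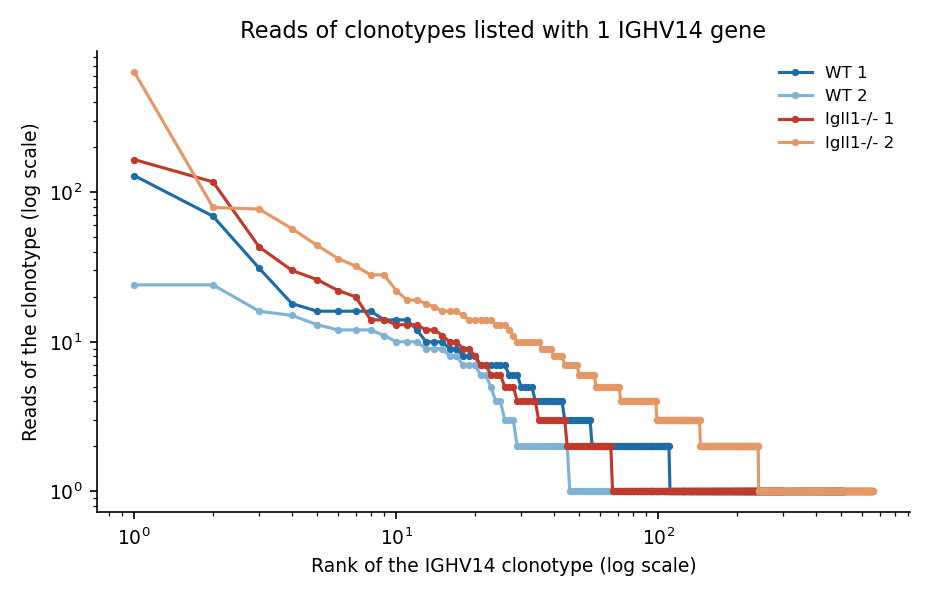
Reads of each clonotype listed with 1 IGHV14 gene (vertical axis, log scale) are drawn against its rank within the library (horizontal axis, log scale). Igll1-/- replicate 2 starts highest, at 637 reads, and WT replicate 2 lowest, at 24 reads.

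Few family clonotypes recurred between libraries. Counting a V gene with its CDR3 as 1 clonotype, 1394 distinct ones were found, of which 126 were in 2 libraries, 30 were in 3 and 6 were in all 4 (0.430%), so that 11.6% were in more than 1. For other V genes 14.8% were in more than 1 library and 1.22% in all 4, and since sharing rises with depth no test was made. WT replicate 1 and Igll1-/- replicate 2 shared the most, 80 clonotypes, which were 16.7% of the former and 13.2% of the latter. WT replicate 2 shared 18 with each Igll1-/- library.
The clonotypes found in all 4 libraries were all IGHV14-3, and those with a CDR3 under 15 residues are printed.
In all libraries, IGHV14-3: AITTVVAY
In all libraries, IGHV14-3: ANWDY
In all libraries, IGHV14-3: AITTVVGFAY
In all libraries, IGHV14-3: ARDYYGS
In all libraries, IGHV14-3: ARNYGSLDY
AITTVVAY held 7 and 1 reads in the WT libraries and 2 and 656 reads in the Igll1-/- libraries, over all clonotypes with this V gene and CDR3. ANWDY held 130 and 15 reads in WT and 10 and 3 reads in Igll1-/- libraries, and AITTVVGFAY held 14, 1, 27 and 4 reads. Being found in every library therefore did not go with a like number of reads, since each of these 3 was large in 1 or 2 libraries. The same CDR3s also occurred with V genes outside the family. In Igll1-/- replicate 2 AITTVVAY was listed with 47 other V genes, which held 395 reads, and ANWDY was listed with 30 other V genes in WT replicate 1, which held 373 reads. The cause of this sharing was not tested. By contrast, ARDYYGS and ARNYGSLDY, with 5 reads each over the 4 libraries, were listed with no other V gene.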

How the data were processed

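The authors assigned the reads with IMGT/HighV-QUEST (version not given in the sources used here) and deposited 1 table per library, with counts of reads per clonotype and percent identity to the germline V gene. The values were not normalized. No genome build is named in these tables, so no coordinates are given. Here each clonotype was counted once per V gene, clonotypes listed with several V genes were counted in the library total only, and V genes were tested where 2 or more libraries held 10 or more of their clonotypes, with edgeR 4.0.16 (R 4.3.3), library size being the total of clonotypes. DESeq2 1.42.0, Fisher's exact test and exact permutation tests (Python 3.11.15, SciPy 1.17.1) were also used, with Benjamini-Hochberg adjustment, and scripts were tested on simulated data. Alternatives counted reads, set a minimum of 2 or 10 reads, kept only productive or unproductive clonotypes, merged clonotypes of the same V, J and CDR3 length that differed by 1 residue from one with at least 10 times the reads, changed the normalization, or left out a library. The named genes were the 4 members, the 3 V genes closest in pattern, and clonotypes chosen by reads or by presence in all libraries. The members, lists and rules were chosen with earlier results of these data known. The first residue of CDR3, counterparts under ambiguous listings and near-identical CDR3s were examined after values had been seen. *Igk* libraries were not used here.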

Additional observations from a re-analysis of the deposited data

How the results depend on the processing

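Neither IGHV14-2 nor IGHV14-3 changed direction or passed the threshold in the alternative fits that tested them, nor did the family. IGHV14-2 had too few clonotypes to be tested with at least 2 or 10 reads or with unproductive clonotypes only. The limits are the 2 libraries per genotype, the ambiguous listings and the clonotypes of 1 read. The number of V genes called, 0, became 1 with DESeq2 and by reads, 3 with at least 10 reads and 3 with unproductive clonotypes only, and 0 to 6 when 1 library was left out, but no member was among them. The number of V gene families called, 0, became 4 with DESeq2, 2 with the replicate block, with at least 10 reads and without WT replicate 1, and 1 with TMM factors, by reads, with at least 2 reads, with productive clonotypes only and without WT replicate 2. With the replicate number as a block (replicate block), 0 V genes were called, and the log2 fold changes were 1.32 for IGHV14-2, 0.55 for IGHV14-3 and 0.53 for the family (edgeR adjusted p = 0.740, 0.740 and 0.423). Libraries of the same number had deviations from the group means that correlated at 0.324 over 91 V genes, and with 2 pairs this does not show that numbers pair libraries. Leaving out 1 library gave 0.0996 to 0.536 percentage points for the share, 2.10 to 3.25 for the productive share and -0.647 to -0.240 amino acids for the CDR3 length between genotypes, and 2.36 to 3.36 percentage points and -0.762 to -0.632 amino acids for the family against other V genes. In the exact test, with at least 10 reads, IGHV14-3 had log2 ratios of 0.89 in the first pair (from -0.04), -0.0719 between WT and 0.34 between Igll1-/- replicates, which then did not pass; after merging, IGHV14-4 had -2.94 in the first pair and did not pass. The share of clonotypes in more than 1 library was 4.29% with at least 2 reads and 4.11% with at least 10, against 12.2% and 7.08% for other V genes. IGHV14-3 had log2 fold changes of 0.95 by reads, 1.04 with at least 2 reads and 1.11 with at least 10. Small differences in J and D shares, none past the threshold, turned over. Between genotypes (Igll1-/- minus WT, percentage points) IGHJ1 was -0.190 with at least 2 reads, -2.84 after merging, -1.35 with every IGHV14 listing and -3.78 to 4.02 when 1 library was left out. IGHJ2 was -8.21 by reads, -3.87 with at least 2 reads, -29.7 with at least 10 and -2.45 to 2.63 with 1 library left out, IGHJ4 was 7.52 with at least 10 reads, and IGHD4 was 2.25 with at least 2 reads. IGHD5 was -0.179 with every IGHV14 listing and -0.335 to 0.444 with 1 library left out, IGHD6 was 0 with at least 10 reads, and clonotypes with no D gene were -0.318 with at least 2 reads and -0.557 with every IGHV14 listing. For the family minus other V genes, IGHJ2 was 7.04 by reads, 1.01 with at least 2 reads, 3.75 with at least 10, 0.259 after merging, 3.33 with every IGHV14 listing and -0.989 to 0.961 with 1 library left out. IGHJ4 was 4.24 by reads, 2.72 with at least 2 reads, 2.07 with at least 10 and -2.82 to 0.682 with 1 library left out. IGHD2 and IGHD3 were 0.260 and -0.270 with at least 2 reads, IGHD4 and IGHD6 were 0.720 and 0.00599 with every IGHV14 listing, and with 1 library left out IGHD3 was -0.866 to 0.891 and IGHD5 was -0.0151 to 0.292. The cause was not tested.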

Other observations

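The CDR3s AITTVVAY and AITTVVGFAY share the residues TTVV, a stretch that IGHD1-1 encodes in one of its reading frames. This stretch was chosen after the values had been seen, and no test was made. It occurred in 4.72% and 4.33% of the productive family clonotypes in WT and in 5.80% and 8.01% in Igll1-/- libraries. Other V genes held it in 3.29% and 3.03% in WT and 3.19% and 4.18% in Igll1-/- libraries. All 101 family clonotypes with the stretch were listed with IGHD1-1, as were 5042 of the 5079 of other V genes. Of the 101, 91 were IGHV14-3, which also made up 1489 of the 1648 productive family clonotypes. In Igll1-/- replicate 2 the family clonotypes with the stretch held 752 reads, of which 656 belonged to AITTVVAY. In that library 28 family clonotypes differed from AITTVVAY by 1 residue, 14 of them with 1 read.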
